A study of Mus musculus with 6 samples.

Results

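The mitochondrial matrix holds its own HSP70 chaperone, GRP75 or mortalin, the product of Hspa9. Described here are 10 genes, Hspa9 and 9 that encode its nucleotide exchange factors, J-proteins and inner-membrane subunits of the import channel where it works. They were chosen by name and looked up by Ensembl gene ID, with each event's position checked against the annotated gene. Of the 11835 genes with a level by that rule, 9 were among these 10. Pam16 had no event under its own gene ID, because the tables list its exons under the neighbouring Coro7, and its level was read from the exon edge that its start event names.

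The libraries came from DN3 thymocytes, T cell precursors that carry CD25 and lack CD4, CD8, CD44 and markers of other lineages. The mice were WT or Hspa9 cKO, in both cases 5 weeks old and without treatment, and the study was made to ask what GRP75 does early in thymocyte development. Each group held 3 libraries. The labels name neither the Cre driver nor the targeted allele, and they do not say whether each library was a separate animal or a pool, so a p-value here reflects the variation among libraries alone, and that variation may be technical.

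Most mitochondrial proteins are made in the cytosol and carry a presequence that leads them through the translocase of the outer membrane (TOM) and then the TIM23 channel of the inner membrane. On the matrix side, GRP75 is tethered to the channel by TIM44 and binds the incoming chain in cycles of ATP hydrolysis, which draw the chain inward. J-proteins start the hydrolysis and GrpE-like exchange factors release the ADP, so that the cycle can begin again. Thymocytes depend on mitochondria as they proliferate after rearrangement of the T cell receptor beta chain.

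The measure is FPKM, a fragment number corrected for the length of the transcript and the size of the library, given by the authors for single transcript events such as a start, an end or a skipped exon. A gene's level here is the summed FPKM of its starts. No read counts were given, so depth is unknown, and an event that a table does not list entered as 0, which can be a failed estimate. Distinct events numbered 87403 to 90970 per library and summed start FPKM lay between 248014 and 272918. In bulk RNA, fewer cells of a kind and less RNA per cell cannot be told apart.

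All 13 DN3 markers examined were listed, with a summed level of 2056 to 2262 FPKM in WT and 2739 to 3267 FPKM in Hspa9 cKO. The 4 genes whose proteins the sort excludes (Cd4, Cd8a, Cd8b1 and Cd44) summed to 7.62 to 8.85 FPKM in WT and 3.21 to 5.15 FPKM in Hspa9 cKO. Of the markers of other cells, 3 of 5 for myeloid cells were listed (8.92 to 14.9 FPKM in WT, 13.5 to 15.5 FPKM in Hspa9 cKO), with Itgam and Mpo not listed. Of the B cell markers, Cd79b was at 9.76 to 12.6 FPKM in WT and 15.3 to 18.3 FPKM in Hspa9 cKO, with Cd79a, Ms4a1 and Pax5 not listed. The erythroid genes Hba-a1, Hbb-bs and Alas2 summed to 25.9 to 31.7 FPKM in WT and 14.7 to 24.1 FPKM in Hspa9 cKO. The DN3 and Cd79b values were thus higher in all Hspa9 cKO libraries, and those of the erythroid and sort-excluded genes lower. Markers of thymic epithelium and stroma, 2 of 7 listed and Foxn1, Krt5 and Krt8 not, were also higher in all Hspa9 cKO libraries. They summed to 27.2 to 29.1 FPKM in WT and 36.7 to 43.5 FPKM in Hspa9 cKO. For NK cells Ncr1 and Klrb1c were not listed, and the other 2 of 4 summed to 200.1 to 219.5 and 201.3 to 206.5 FPKM. For dendritic cells 1 of 4 was listed, at up to 0.0439 FPKM in WT and 0 in Hspa9 cKO. The part of these shifts in the results that follow was not tested.

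The levels of the 10 genes spanned from Hspa9, far above the rest, to Dnajc15. In WT the order of the mean levels was Hspa9 (116.1 FPKM), Timm50 (30.5), Timm44 (26.1), Dnajc19 (22.5), Pam16 (21.2), Grpel1 (18), Dnaja3 (14.3), Timm21 (9.73), Grpel2 (6.23) and Dnajc15 (4.59 FPKM). Along that order, the WT libraries of Timm44 and Dnajc19, of Dnajc19 and Pam16, and of Grpel2 and Dnajc15 overlapped, so these neighbours did not differ beyond their spread. For the other 6 neighbouring pairs the WT libraries lay apart. The plot of the 10 levels by library shows this order and where the Hspa9 cKO libraries fall.

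**Figure D1:**
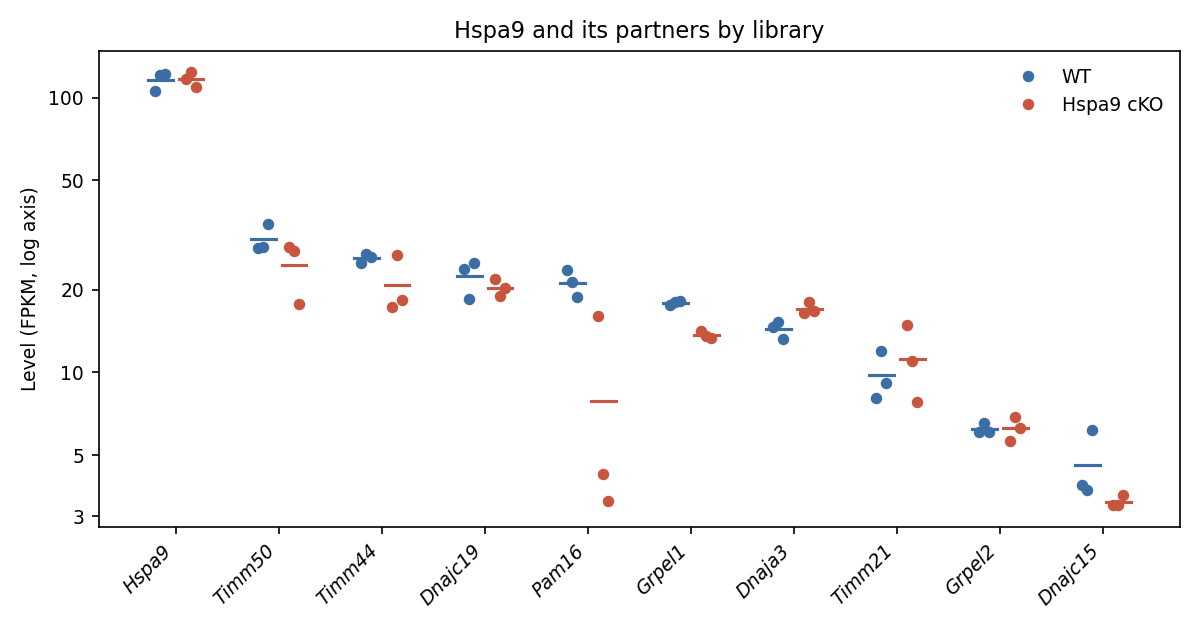
Level of each of the 10 genes in each library, in FPKM on a log axis, with WT in blue and Hspa9 cKO in red; points are libraries (n = 3 per group), bars are group means, and genes are ordered by their WT mean. Hspa9 lies above 100 FPKM in all 6 libraries, the Grpel1 and Dnaja3 groups lie apart in opposite directions, and 2 of the 3 Hspa9 cKO points of Pam16 lie near 4 FPKM.

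Of the 9 genes tested by their own gene ID, Grpel1 was lower in Hspa9 cKO, 0 were higher and 8 did not pass the test (limma on log2(FPKM + 1), Benjamini-Hochberg adjustment over 8926 genes, threshold 0.05). Over all 8926 genes 14.1% were called, 5.8% lower and 8.34% higher. The median log2 change of the 9 genes was -0.13, beside 0.06 over all genes tested. The groups did not overlap for 3 of the 9 (Dnaja3, Grpel1 and Dnajc15), beside 39.1% of all genes. With events placed by exon edge, which adds Pam16, 1 of 10 was called and the groups of 4 of 10 did not overlap, beside 13.3% called (5.44% lower, 7.89% higher) and 38.6% without overlap among 9445 genes.

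Sequences are shown for Grpel1, the called gene, for Pam16, which had the largest difference between group means relative to its level, and for an exon that Dnaja3 transcripts carried in varying share. RefSeq promoter windows of 300 bases (GRCm38.p6, 250 before and 50 after each gene's start) existed for 7 of the 10 genes. Only the bases upstream of the gene annotated by GENCODE are printed. Capitals in the Grpel1 line mark CCGGAAG, the core bound by ETS factors, read on the opposite strand. The Grpel1 line is chr5:36464935-36464997, plus strand, and the Pam16 line is chr16:4624989-4625196, minus strand.
Grpel1 promoter: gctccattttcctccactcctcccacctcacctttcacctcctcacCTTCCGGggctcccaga
Pam16 promoter: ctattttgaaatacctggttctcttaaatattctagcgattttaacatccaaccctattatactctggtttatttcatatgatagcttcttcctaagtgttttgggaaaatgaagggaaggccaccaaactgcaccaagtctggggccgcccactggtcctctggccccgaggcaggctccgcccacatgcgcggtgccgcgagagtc
The first 63 coding bases of Pam16 come next, from GENCODE M21 (GRCm38, chromosome 16, minus strand). The start codon in capitals closes exon 1 (chr16:4624851-4624853) and the other 60 bases open exon 2 (chr16:4617944-4618003).
Pam16 coding start: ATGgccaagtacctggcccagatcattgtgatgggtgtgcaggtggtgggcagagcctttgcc
Last is the coding part of Dnaja3 exon 11 (chr16:4705844-4705947, plus strand), 104 bases that end in the stop codon, in capitals.
Dnaja3 exon 11: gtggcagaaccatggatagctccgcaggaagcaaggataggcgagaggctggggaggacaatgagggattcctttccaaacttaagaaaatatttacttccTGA

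Motifs were searched on both strands of the whole windows, and none overlaps another in the windows of these genes. CCGGAAG was found for Grpel1, at base 47 counted from the 5′ end of the window, and for Dnaja3, at base 249; 8.86% of all 32851 promoters of the same length hold it. CCAAT, the CCAAT box, was found for Grpel1, Dnaja3, Dnajc19, Timm44 and Timm50, and in 37.41% of all promoters; the Grpel1 match, at base 123, lies within its annotated first exon and is not in the printed stretch. TGATGNAA (the composite element of ATF4, 3.97% of all promoters) and CACGTG (the E-box, 7.15%) were not found for any of the 7 genes, and Pam16 and Dnajc15 held none of the 4 motifs. A match is a run of letters and was not measured as a binding site.

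Hspa9 was targeted in these mice, and its total level stayed within its spread, whereas the share of transcripts with exons 2 to 4 was lower in every Hspa9 cKO library. Hspa9 (ENSMUSG00000024359, mm10 chromosome 18, 34937414 to 34954357, minus strand) was at 105.4, 121.2 and 121.7 FPKM in WT and at 117.2, 123.5 and 109.7 FPKM in Hspa9 cKO. The groups overlapped, with a log2 change of 0.01 (95% confidence interval -0.20 to 0.22; limma, adjusted p = 0.952), and the sign varied with the scaling, from -0.08 to 0.05 over the alternatives. The groups differed in exons 2 to 4. The labels name no targeted allele, and these exons were chosen with earlier results of these data known. Their share is therefore no independent check of the labels.

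Transcripts that carried exons 2 to 4 stood at 105.3, 108.8 and 104.6 FPKM in WT and at 24.9, 16.8 and 25.2 FPKM in Hspa9 cKO. Their share of the Hspa9 forms was 100%, 89.9% and 86.1% in WT and 21.3%, 13.6% and 22.9% in Hspa9 cKO. Every Hspa9 cKO library was thus far below every WT library (difference of means -72.7 points; exact two-sided permutation test, p = 0.1, the smallest that 3 against 3 libraries allow). The carried form of Hspa9 cKO, at 22.3 ± 4.78 FPKM (SD, n = 3), lay in the range of Timm50 (24.6 ± 5.91 FPKM) and Timm44 (20.8 ± 5.19 FPKM) in the same libraries. Nothing in the tables says whether it came from cells that kept the exons or from every cell.

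The remaining Hspa9 transcripts went from exon 1 to exon 5 by 2 routes. The splice to the usual acceptor of exon 5 made up 65.7%, 72.4% and 62.8% of the forms in Hspa9 cKO, and in WT it was not listed in replicate 1 and made up 10.1% and 13.9% in replicates 2 and 3. Translated from the annotated start codon of the GENCODE transcript, this form reads 27 residues and then meets a stop codon, against 679 residues with all exons. The splice to an acceptor further inside exon 5 was listed in the Hspa9 cKO libraries alone, at 13.1%, 14% and 14.3% of the forms. This form stays in frame and reads 568 residues, with residues 28 to 138 left out and the last 541 as in the full protein. Its share varied little between libraries (13.8% ± 0.62, SD, n = 3). The protein was not measured.

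**Figure D2:**
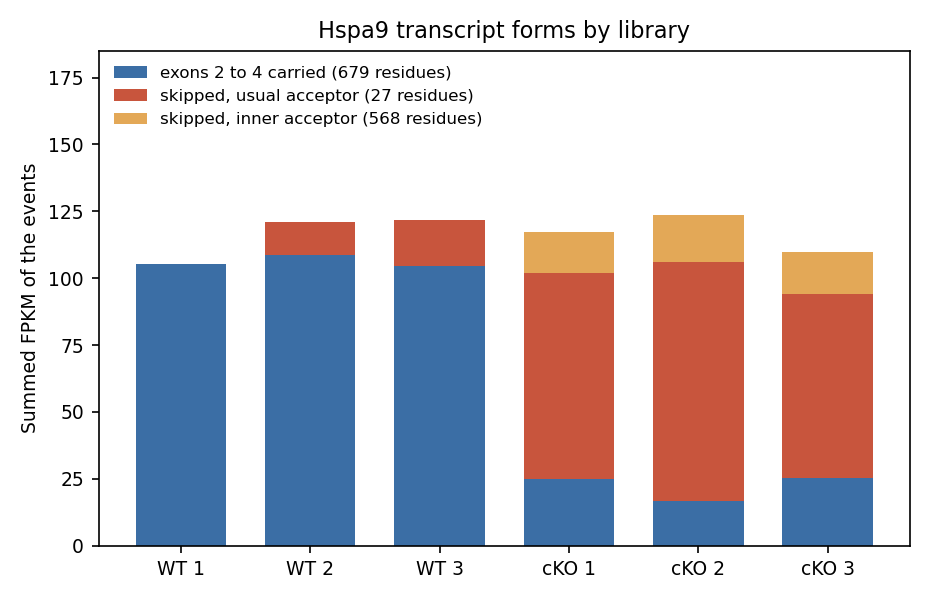
Summed FPKM of the 3 Hspa9 transcript forms in each library, stacked: exons 2 to 4 carried, skipped to the usual acceptor of exon 5, and skipped to the inner acceptor; the legend gives the residues that each form reads from the annotated start codon. The full height is alike in the 6 bars, while the carried form is between 104.6 and 108.8 FPKM in WT and between 16.8 and 25.2 FPKM in Hspa9 cKO.

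Of the exchange factors, Grpel1 was lower in Hspa9 cKO, and its paralog Grpel2 did not pass the test. Both encode GrpE-like proteins that free GRP75 of ADP. Grpel1 (ENSMUSG00000029198, chromosome 5, 36464998 to 36474080, plus strand) was at 17.6, 18 and 18.2 FPKM in WT and at 14.2, 13.6 and 13.3 FPKM in Hspa9 cKO. All Hspa9 cKO libraries lay below all WT libraries, and the spread within each group was small (18 ± 0.294 and 13.7 ± 0.46 FPKM, SD, n = 3). This gave a log2 change of -0.37 (standard error 0.07, interval -0.53 to -0.20; limma, adjusted p = 0.0232), with p = 0.1 by exact two-sided permutation. Its start and its end are listed with the same values in every library, so the end adds no second reading. Leaving out any 1 of the 6 libraries ended the call, with changes of -0.39 to -0.35 and limma adjusted p between 0.0585 and 0.0841.

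Grpel2 (ENSMUSG00000024580, chromosome 18, 61712424 to 61726325, minus strand) was at 6.06, 6.54 and 6.08 FPKM in WT and at 5.63, 6.9 and 6.3 FPKM in Hspa9 cKO. The groups overlapped, with a log2 change of 0.01 (interval -0.24 to 0.26; limma, adjusted p = 0.972), whose sign also varied with the scaling. Both listed start events of Grpel2 begin at the same base and differ in where the first exon ends. The one with the long first exon, which runs on to a donor further in, held 18.2% and 10.2% of the start FPKM in WT replicates 1 and 2 and 9.36% in Hspa9 cKO replicate 2, and was not listed in the other 3 libraries. The difference in that share was -6.35 points (exact two-sided permutation test, p = 0.4), and it lay between -11.1 points without WT replicate 3 and -2 points without WT replicate 1. Whether the changes of Grpel1 and Grpel2 differ from each other was not tested.

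Among the J-proteins, none passed the test. Dnaja3, also called TID1, encodes a J-protein of the matrix that works with GRP75 in folding and in upkeep of mitochondrial DNA. Dnaja3 (ENSMUSG00000004069, chromosome 16, 4639989 to 4707695, plus strand) was at 14.6, 15.2 and 13.2 FPKM in WT and at 16.5, 18 and 16.7 FPKM in Hspa9 cKO. The groups did not overlap, with the Hspa9 cKO libraries above, and the change did not pass the test (log2 change 0.24, interval 0.03 to 0.45; limma, adjusted p = 0.116). With each library's trend over transcript length removed it was 0.15 (limma, adjusted p = 0.293), and over the alternatives it ranged from 0.15 to 0.28.

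Dnaja3 makes a long protein of 480 residues with exon 11 and a short one of 453 residues without it, which differ at the C terminus: the stop codon of the long form is the one in capitals in the printed exon. Transcripts that carry exon 11 made up 20.5%, 35.6% and 9.16% in WT and 27.1%, 24.5% and 9.58% in Hspa9 cKO. The short form led in every library, and the share varied as widely within a group as between groups (21.8% ± 13.3 and 20.4% ± 9.44, SD, n = 3; exact two-sided permutation test, p = 1). In FPKM the short form was at 11.5, 9.73 and 11.6 in WT and at 12, 13.5 and 15.1 in Hspa9 cKO. These did not overlap (exact p = 0.1), whereas the long form, at 3.17 ± 2.12 and 3.47 ± 1.62 FPKM, did.

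Dnajc19, the counterpart of yeast Pam18, encodes the J-protein that stimulates GRP75 at the import channel. Dnajc19 (ENSMUSG00000027679, chromosome 3, 34056020 to 34081321, minus strand) was at 23.8, 18.5 and 25 FPKM in WT and at 21.8, 18.9 and 20.2 FPKM in Hspa9 cKO. The groups overlapped (log2 change -0.13, interval -0.44 to 0.18; limma, adjusted p = 0.541). The change was -0.26 without WT replicate 2 and -0.05 without WT replicate 3, and neither passed the test (limma, adjusted p = 0.151 and 0.848). Its principal transcript end held 95.3% ± 2.19 of its end FPKM in WT and 94.2% ± 1.37 in Hspa9 cKO (SD, n = 3; exact p = 0.5). Exon 2 was carried by at least 99.3% of transcripts in each library.

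Dnajc15, also called MCJ, is a J-protein of the inner membrane related to Dnajc19 and known as a brake on respiratory chain activity in T cells. Dnajc15 (ENSMUSG00000022013, chromosome 14, 77820681 to 77875125, minus strand) was at 3.89, 3.74 and 6.15 FPKM in WT and at 3.29, 3.29 and 3.58 FPKM in Hspa9 cKO. The Hspa9 cKO libraries lay below all WT libraries, WT replicate 3 stood well above the rest, and the change did not pass the test (log2 change -0.33, interval -0.76 to 0.11; limma, adjusted p = 0.273). It was -0.13 without WT replicate 3 (limma, adjusted p = 0.478).

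Pam16, also called MAGMAS, encodes the J-like protein that pairs with Dnajc19 and restrains it. Its own start was far below WT in 2 of 3 Hspa9 cKO libraries, and the change over all libraries did not pass the test. Pam16 (ENSMUSG00000014301, chromosome 16, 4616464 to 4624988, minus strand) had its start at 23.6, 21.3 and 18.8 FPKM in WT and at 16, 4.27 and 3.41 FPKM in Hspa9 cKO. The groups did not overlap, and Hspa9 cKO replicate 1 was close to WT while replicates 2 and 3 were low. This gave a log2 change of -1.59 (standard error 0.51, interval -2.83 to -0.36; limma, events placed by exon edge, adjusted p = 0.0942), with p = 0.1 by exact two-sided permutation. Without Hspa9 cKO replicate 1 it was -2.20 (limma, adjusted p = 0.00935), and with any other library left out the adjusted p was between 0.168 and 0.221.

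Pam16 lies just downstream of Coro7, which encodes a coronin that binds actin, on the same strand. The tables hold a splice from the last exon of Coro7, 273 nucleotides past its stop codon, across 9217 nucleotides to exon 2 of Pam16. Transcripts with this junction lack the Pam16 start codon, the capitals in the printed coding start, and share the bases after it. The junction was at 14.7, 14.5 and 14.3 FPKM in WT and at 15.3, 12.9 and 9.34 FPKM in Hspa9 cKO. Replicate 1 of Hspa9 cKO was above WT and the other 2 were below it, so the groups overlapped (exact two-sided permutation test, p = 0.4). The summed starts of Coro7 overlapped too, at 23.6 ± 3.7 FPKM in WT and 23.9 ± 1.58 FPKM in Hspa9 cKO (SD, n = 3; exact p = 1), with 1 start at 7.78 FPKM in WT replicate 2 alone and at 1.08 FPKM or less elsewhere. Transcripts that carry an internal exon of Coro7 (chromosome 16, 4633255 to 4633430) were at 20.2, 20 and 19.9 FPKM in WT and at 21.1, 23.5 and 20.5 FPKM in Hspa9 cKO, where all 3 lay above WT (exact p = 0.1).

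Exon 3 of Pam16 (chromosome 16, 4617126 to 4617262), which both routes share, was at 38.5, 35.8 and 33.3 FPKM in WT and at 31.4, 22.7 and 19.4 FPKM in Hspa9 cKO. The groups did not overlap, with a smaller ratio between group means than for the own start (35.8 ± 2.6 against 24.5 ± 6.2 FPKM, SD, n = 3; exact two-sided permutation test, p = 0.1). The own start held 61.4%, 59.4% and 56.6% of the exon 3 value in WT and 51%, 18.8% and 17.6% in Hspa9 cKO. The read-through junction held 38.1%, 40.4% and 43% in WT and 48.6%, 56.6% and 48.2% in Hspa9 cKO. In WT and in Hspa9 cKO replicate 1 the own start and the junction together left at most 0.165 FPKM of exon 3 unaccounted for. In Hspa9 cKO replicates 2 and 3 they left 5.59 and 6.61 FPKM, of which a second listed route from Coro7 held 1.56 FPKM in replicate 3. That route passes through an exon that ends at the donor of Pam16 exon 1 and so holds the Pam16 start codon. The own start was thus lowest in the libraries where part of exon 3 was tied to no listed start or junction, and its value is an estimate that depends on how reads were divided among the transcripts of the locus.

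**Figure D3:**
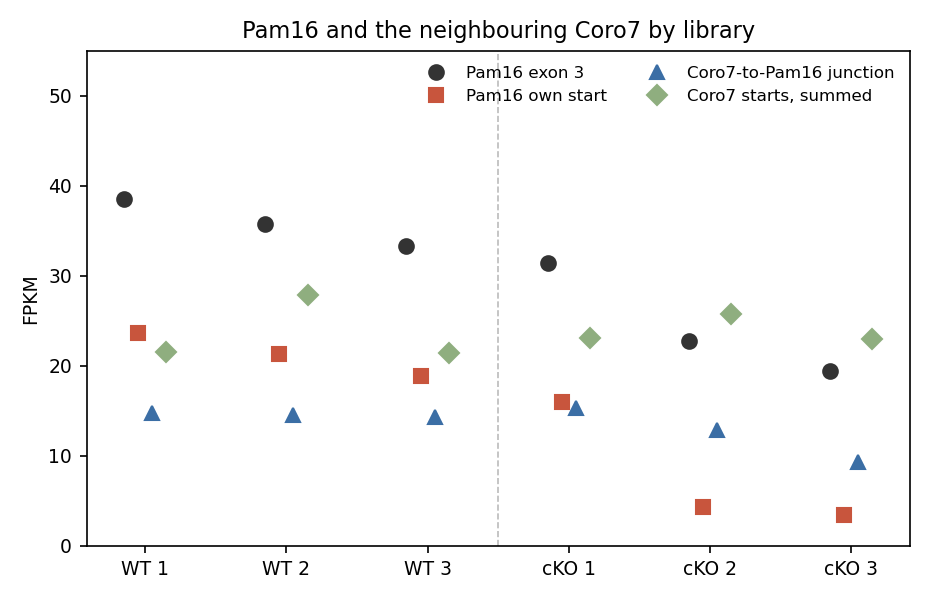
FPKM of Pam16 exon 3 (circles), the Pam16 own start (squares), the Coro7-to-Pam16 junction (triangles) and the summed starts of Coro7 (diamonds) in each library, with WT left of the dashed line. In Hspa9 cKO replicates 2 and 3 the own start is at 4.27 and 3.41 FPKM while exon 3 is at 22.7 and 19.4 FPKM.

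Of the channel subunits, Timm44, Timm50 and Timm21, none passed the test with all 6 libraries. Timm44 encodes the subunit that anchors GRP75 at the matrix face of the channel. Timm44 (ENSMUSG00000002949, chromosome 8, 4259731 to 4275913, minus strand) was at 25, 27 and 26.3 FPKM in WT and at 17.3, 26.8 and 18.4 FPKM in Hspa9 cKO. Of the latter, replicates 1 and 3 were below all WT libraries and replicate 2 was among them (log2 change -0.33, interval -0.74 to 0.07; limma, adjusted p = 0.228). Without Hspa9 cKO replicate 2, the library at the WT level, the change was -0.52 and passed the test (limma, adjusted p = 0.0418). It was -0.22 without Hspa9 cKO replicate 1 and -0.26 without replicate 3. With any library other than Hspa9 cKO replicate 2 left out, the adjusted p was between 0.311 and 0.459 (limma).

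The same 2 libraries stood out in a retained intron. Intron 9 of Timm44 was retained in 1.05%, 0.732% and 0.732% of transcripts in WT and in 11.1%, 0.874% and 3.91% in Hspa9 cKO. Replicates 1 and 3 of Hspa9 cKO were above WT, replicate 2 lay within it, and the difference did not pass the test (exact two-sided permutation test, p = 0.2). The spliced form was at 20.5, 23.9 and 24.3 FPKM in WT and 13.9, 23.4 and 15.3 FPKM in Hspa9 cKO, and so followed the level.

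Timm50 encodes the TIM23 receptor that takes over presequences from the TOM complex. Timm50 (ENSMUSG00000003438, chromosome 7, 28305516 to 28312072, minus strand) was at 28.3, 28.5 and 34.7 FPKM in WT and at 28.5, 27.6 and 17.8 FPKM in Hspa9 cKO. The groups overlapped, and replicate 3 of Hspa9 cKO was the lowest library (log2 change -0.32, interval -0.79 to 0.15; limma, adjusted p = 0.316). Without that library the change was -0.11 (limma, adjusted p = 0.592). The listed end of Timm50 was at 8.56, 4.68 and 6.26 FPKM in WT and 4.24, 4.16 and 4.91 FPKM in Hspa9 cKO, a lower value than the start in every library (log2 change from ends -0.43; limma, adjusted p = 0.204).

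Timm21 encodes a subunit that links the TIM23 channel to the TOM complex and to the respiratory chain. Timm21 (ENSMUSG00000024645, chromosome 18, 84946191 to 84951524, minus strand) was at 8.06, 12 and 9.18 FPKM in WT and at 14.9, 11 and 7.78 FPKM in Hspa9 cKO. Hspa9 cKO held both the highest and the lowest library (log2 change 0.16, interval -0.44 to 0.76; limma, adjusted p = 0.695), and without Hspa9 cKO replicate 1 the sign turned, to -0.05. Transcripts with exon 4, by contrast, varied less, at 8, 8.84 and 8.52 FPKM in WT and 7.54, 7.21 and 7.75 FPKM in Hspa9 cKO. These groups did not overlap (8.45 ± 0.427 and 7.5 ± 0.273 FPKM, SD, n = 3; exact two-sided permutation test, p = 0.1). Exon 4 was carried by 100%, 93.7% and 100% of transcripts in WT and by 73.1%, 76.9% and 100% in Hspa9 cKO (exact p = 0.4). Intron 2 was retained in 14.4%, 21.5% and 28.1% in WT and in 24.5%, 23.4% and 8.5% in Hspa9 cKO (exact p = 0.7). Replicate 3 of Hspa9 cKO was like WT for exon 4 and lower than WT for intron 2.

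**Figure D4:**
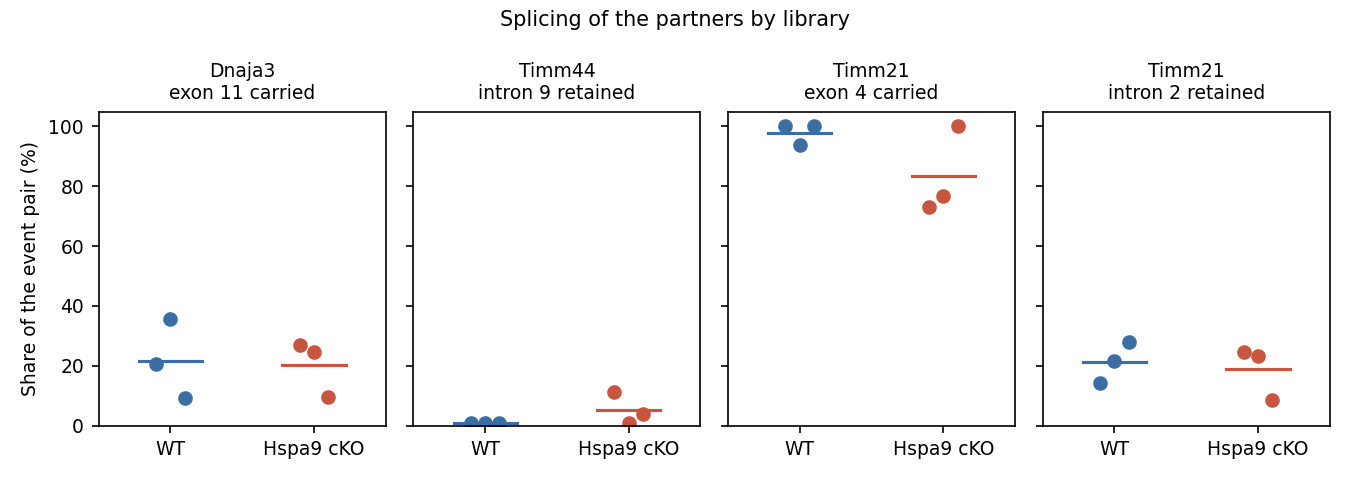
Share of transcripts, in percent of the event pair, that carry Dnaja3 exon 11, retain Timm44 intron 9, carry Timm21 exon 4 or retain Timm21 intron 2; points are libraries (n = 3 per group) and bars are group means, with WT in blue and Hspa9 cKO in red. The groups overlap in all 4 panels, and the raised Timm44 values are 11.1% and 3.91% in 2 Hspa9 cKO libraries.

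Across all these splicing pairs, 0 of the 10 that could be tested for these genes were called (limma on log2((inclusion + 1)/(exclusion + 1)), Benjamini-Hochberg adjusted over 10573 pairs), beside 0.227% of all pairs. Hspa9 exons 2 to 4 had the lowest adjusted p of the 10, 0.204 by limma, with a log2 ratio change of -5.90 and a standard error of 1.16. At an unadjusted p under 0.05 it was the only 1 of the 10, beside 9.67% of all pairs. Exact permutation tests were also run on 15 shares of starts, ends and exons. Their smallest Benjamini-Hochberg adjusted p was 0.3, reached by the 3 Hspa9 shares and the 2 Pam16 shares. With 3 against 3 libraries no exact p can be below 0.1, so none of the 15 could pass. The 3 Hspa9 shares are parts of 1 total.

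The wider pathway was read from 31 other genes of presequence import, matrix folding and precursor processing, a list written with earlier results of these data known. Of the 27 that could be tested, 6 were lower, 0 higher and 21 were not called (limma, adjusted over 8926 genes), beside 5.8% of all genes called lower. The median log2 change was -0.29, beside 0.06 over all genes tested. The groups did not overlap for 21 of the 27, beside 39.1% of all genes. Of the 21 without overlap, Dnlz, Hscb, Xpnpep3 and Clpx were higher in Hspa9 cKO (log2 changes 0.30, 0.19, 0.35 and 0.28). None of these passed the test, and the rest of the 21 were lower. Hspd1, the matrix chaperonin HSP60 that folds proteins after GRP75, was at 220.6, 225.2 and 220.3 FPKM in WT and at 145.9, 129.0 and 131.7 FPKM in Hspa9 cKO. All Hspa9 cKO libraries were below all WT libraries (log2 change -0.71, standard error 0.07; limma, adjusted p = 0.00372), and this call held under every alternative tried, with adjusted p up to 0.0424. Its co-chaperonin Hspe1 was at 248.9, 229.0 and 245.6 FPKM in WT and at 187.0, 183.0 and 185.3 FPKM in Hspa9 cKO (log2 change -0.38; limma, adjusted p = 0.0138).

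The other called genes were 3 of the TOM complex and the matrix protease Lonp1. Tomm20, a presequence receptor, had a log2 change of -0.34 (limma, adjusted p = 0.0237), with 35.3 to 37.7 FPKM in WT and 28 to 29 FPKM in Hspa9 cKO. The small subunits Tomm5 and Tomm7 had -0.91 and -0.40 (limma, adjusted p = 0.0237 and 0.0179). Tomm5 went from 12.3 to 15.4 FPKM in WT to 5.23 to 8.29 FPKM in Hspa9 cKO. Lonp1, which degrades damaged matrix proteins, had -0.30 (limma, adjusted p = 0.0359), with 43.8 to 46.2 FPKM in WT and 35.5 to 38.2 FPKM in Hspa9 cKO. With events placed by exon edge Tomm6 was also lower (log2 change -0.77; limma, adjusted p = 0.0191), for 7 of 28. Apart from Hspd1, each of these calls ended when single libraries were left out: for Lonp1 any of the 6, for Tomm20 any but WT replicate 2, for Tomm5 any but Hspa9 cKO replicate 2, for Hspe1 and Tomm7 WT replicate 1 or any Hspa9 cKO library, and for Tomm6 WT replicate 1 or 2 or Hspa9 cKO replicate 2 or 3.

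**Figure D5:**
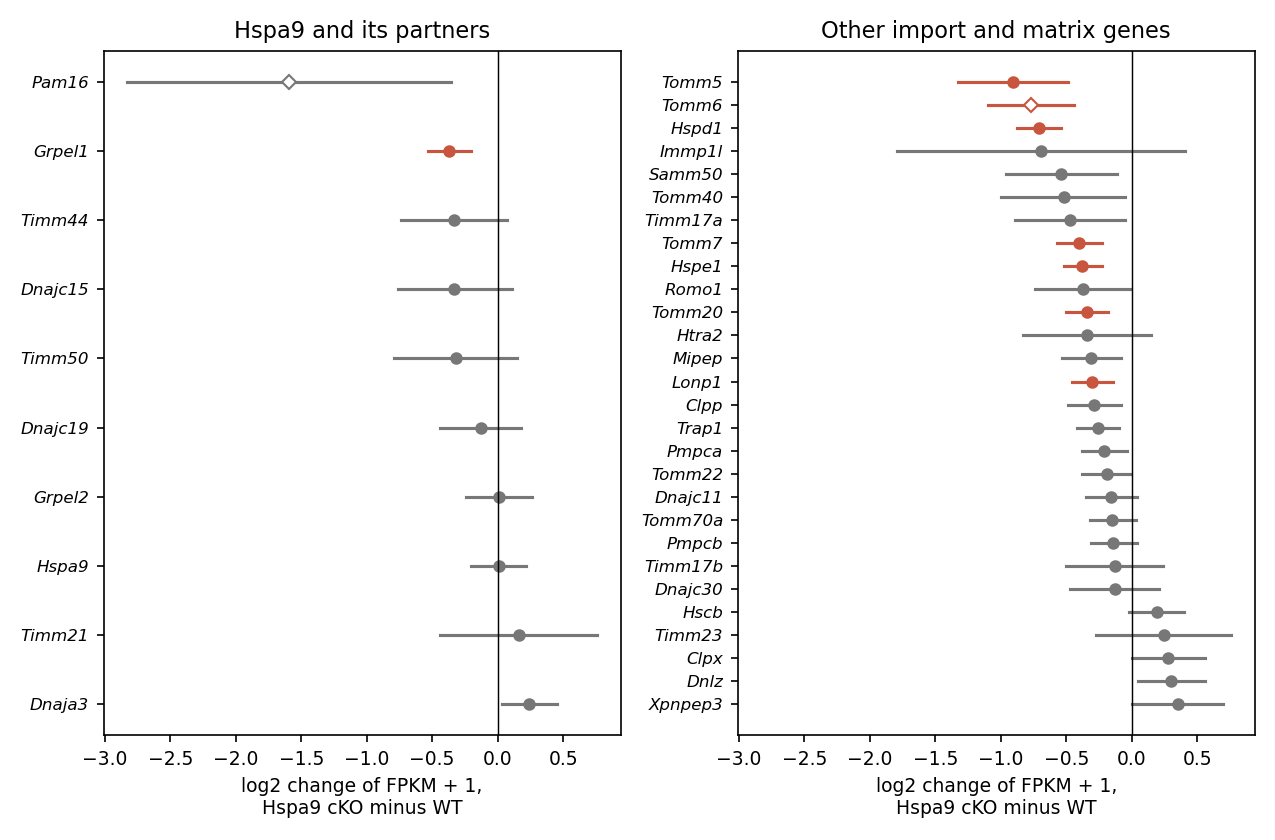
Log2 change of FPKM + 1, Hspa9 cKO minus WT, with its 95% confidence interval from limma, for the 10 genes (left) and for the other import and matrix genes that could be tested (right); red marks an adjusted p under 0.05 and open diamonds mark genes read by exon edge. Grpel1 is the called gene on the left, at -0.37, and the 7 called genes on the right lie between -0.91 and -0.30.

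The genes whose level followed that of Hspa9 most closely over the 6 libraries, of 6407 with a mean of at least 5 FPKM, were Dvl1 (Pearson r = 0.995), Zfp428 (0.963), Slc25a11 (0.951), Ssna1 (0.950) and Tent4b (0.946). Among the partners of Hspa9, with events placed by exon edge, r was highest for Timm21 (0.59) and Timm50 (0.50). It was lowest for Dnajc19 (-0.34), with 0.03 for Grpel1 and -0.04 for Pam16. The genes named first were picked for their high r, so the partners cannot be judged against them. These are descriptions over 6 libraries of 2 groups that share their scaling within each library, and Hspa9 itself varied little.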

How the data were processed

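RNA sequencing was done on DN3 thymocytes, 3 WT and 3 Hspa9 cKO libraries, grouped and numbered by their titles. The submitters' processing notes name cutadapt 1.9.1, a read trimmer, and the build mm10; the sources used here do not give the aligner, assembler or annotation. Per the labels' protocols, messenger RNA was enriched by poly(A) selection or removal of ribosomal RNA. The authors deposited FPKM values per transcript event, per the file headers, and such values depend on how reads were divided among isoforms. The 10 genes, the lists and the tests were chosen with earlier results of these data known.

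Repeated event numbers were dropped (0 had differing values). Of 27390 start events, 24160, with 90.02% of start FPKM, lay within the GENCODE M21 gene of their gene ID; levels came from starts for 11312 genes and from ends for 523. Levels were tested on log2(FPKM + 1), which understates changes of low genes, with limma 3.58.1 (R 4.3.3; trended, robust variances, two-sided) wherever at least 3 libraries reached 1 FPKM, with Benjamini-Hochberg adjustment and a threshold of 0.05. Splicing ratios were tested likewise where a pair averaged 5 FPKM or more in total. Single values were tested by exact two-sided permutation (scipy 1.17.1). The tests were tried on simulated data. There, 14.75% of genes given a log2 change of 0.5 in either direction were called, 49.23% at 1 and 91.55% at 2. Of unchanged genes 0.07% were called. Of 200 splicing pairs given a log2 ratio change of 3, 60.5% were called, and 0.07% of unchanged pairs. In the data 24 pairs were called, so this rate cannot be carried over either. Small changes of genes were mostly missed there. The simulation changed 61, 65 and 71 genes at 0.5, 1 and 2, whereas 1262 genes were called in the data. The adjustment is stricter where fewer genes change, so these gene rates may understate those in the data. A gene that did not pass the test may still have changed. Placing events by exon edge was added after the data were seen. All 10 genes are named; of the pathway list each called gene is named; the genes most like Hspa9 are the 5 with the highest Pearson r. Alternatives covered filters, pseudocount, scaling, transcript length, ends for starts, position check, a replicate block and leaving out each library. Some marker genes examined are not reported here.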

Additional observations from a re-analysis of the deposited data

How the results depend on the processing

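With all 6 libraries 1 of the 9 genes tested by their own ID was called; leaving out 1 library gave 0 to 1, and the 1 called without Hspa9 cKO replicate 2 was Timm44, not Grpel1. Over all genes 1262 were called, and 408 to 821 with 1 library left out. The replicate block left 0 of the 9 genes and 221 genes in all called, and ended the calls of Grpel1 (limma, adjusted p = 0.0977), Tomm5, Tomm6, Tomm7, Tomm20, Hspe1 and Lonp1. Same-numbered libraries did not deviate together over all genes (correlations 0.019, -0.029 and -0.028). A weak pairing, or one of few genes, would not show in these values, and the labels name no litter or batch. The split of 744 higher and 518 lower became 581 and 683 with trimmed means of log ratios, 591 and 647 with the median of ratios, and 549 and 757 with the length trend removed, while the median change moved by less than 0.1. Under these 3 settings the change of Hspa9 was -0.06, -0.05 and -0.08, and that of Grpel2 -0.05, -0.04 and -0.08. With 1 library left out, Hspa9 ranged from -0.06 (without WT replicate 1) to 0.05 and was also below 0 without Hspa9 cKO replicate 2. Grpel2 ranged from -0.05 to 0.07 and was below 0 without WT replicate 1 or 3 or Hspa9 cKO replicate 2. Timm21 ranged from -0.05, without Hspa9 cKO replicate 1, to 0.38. The cause was not tested. Grpel1 was -0.46 to -0.35 over all 16 alternatives and kept its call in 9, of which the levels from ends repeat the same values. The 7 that ended its call were the replicate block and leaving out each of the 6 libraries. The 10 splicing pairs had 0 calls in all 9 alternatives, and the Hspa9 exon share kept its direction in all 7. The Grpel2 share with the long first exon kept its direction whichever of the 6 libraries was left out. Dnajc15 was not tested with a filter of 5 FPKM, nor Timm21 from its ends, since too few libraries passed. Without counts, depth sets no stated limit; 3 libraries per group do.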
